A study of Mus musculus with 10 samples.

Results

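The genes described here are 37 genes of glucose breakdown and of the response to low oxygen, taken from the 55385 mouse genes measured in tumour neutrophils. They were chosen by name. Of them, 20 encode glucose transporters, glycolytic enzymes and lactate transporters (the glycolytic genes), and 17 encode the hypoxia-inducible factor HIF-1 alpha, its regulators and other genes that HIF is known to induce (the HIF genes). Each symbol was matched to an Ensembl identifier through GENCODE M21. Aldoa had 2 identifiers and ENSMUSG00000030695 was used, so 38 table entries carried the 37 symbols. Of the 37 genes, 36 passed the filter of a mean of 5 CPM (counts scaled to a common library size). Adm, which encodes the vessel-dilating peptide adrenomedullin, lay under it and was not tested. With the scaling factors described below, Adm had a mean of 3.69 and a range of 1.30 to 5.16 CPM over the libraries. Pfkfb4 lay just above the filter, with 2.99 to 8.49 CPM on the same scale.

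RNA was sequenced from Tomato-positive neutrophils sorted from squamous cell carcinomas (SCC) grafted on CatchupIVM-red mice. In that strain a red fluorescent reporter is switched on by Cre driven from the neutrophil gene Ly6g, so the sort follows past or present Ly6g activity. The grafts were parental SCC cells with low Sox2 (control; GFP in the library descriptions) or SCC cells with high Sox2 (Sox2Hi; Sox2 in the descriptions), and both descriptions carry the tag C57. Mice were left untreated (naive) or received anti-PDL1 with a CD40 agonist once tumours were established (treated). Control tumours gave 3 naive and 2 treated libraries, and Sox2Hi tumours likewise 3 and 2. The design asks whether Sox2 in tumour cells alters the neutrophils around them. Replicates are numbered here as in the sample titles. The library descriptions give the same numbers to the naive libraries, but number control treated replicates 1 and 2 as 2 and 3, and Sox2Hi treated replicates 1 and 2 as 1 and 3. Neither the age of the mice nor whether replicates came from separate animals is given in the sources used here, so p-values measure the spread between these samples, which may be technical.

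Glycolysis converts glucose to pyruvate in the cytosol, and neutrophils, which have few mitochondria, are known to draw most of their ATP from it. Cells that rely on it reduce pyruvate to lactate and export the lactate. HIF-1 alpha is a transcription factor that is hydroxylated by the EGLN enzymes and degraded through VHL when oxygen is present. When oxygen falls, or when inflammatory signals raise its level in myeloid cells, it pairs with ARNT, binds a short motif with the core ACGTG or GCGTG and induces most genes of glycolysis together with genes of mitophagy, angiogenesis and its own control. HIF-1 alpha is mainly regulated as a protein, and RNA counts do not measure that.

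Total counts ran from 13815734 to 22986193 per library. The read rate per kb over olfactory and vomeronasal receptor genes, taken as silent, would over the exons of all genes amount in control tumours to 6.37% ± 1.78 of all counts when naive (SD, n = 3) and 1.66% ± 0.113 when treated (SD, n = 2), and in Sox2Hi tumours to 3.77% ± 0.146 (SD, n = 3) and 4.50% ± 0.651 (SD, n = 2). Since such reads weigh most on low genes and so on factors fitted over all genes, the scaling factors were fitted over the 11274 genes that passed the filter, and a fit scaled over all genes is given where it alters a result. All levels below are CPM scaled by these factors. The summed level of 16 neutrophil markers was 13093 to 21414 CPM in control naive, 43048 to 45163 in control treated, 12733 to 18676 in Sox2Hi naive and 21896 to 22340 in Sox2Hi treated. That of 15 keratinocyte markers was 2310 to 4745, 1435 to 2486, 3812 to 5053 and 2276 to 3210 CPM, that of 11 fibroblast and endothelial markers 308 to 794, 118 to 143, 512 to 701 and 133 to 349 CPM, and that of 8 erythroid markers 579 to 1497, 53.3 to 320, 274 to 571 and 26.3 to 64.0 CPM in the same order. For 13 macrophage and dendritic cell markers the sums were 811 to 1233, 1183 to 1807, 1226 to 1738 and 943 to 1771 CPM, and for 11 T and NK cell markers 53.4 to 89.7, 136 to 452, 39.9 to 132 and 156 to 259 CPM. No marker was without reads in all libraries. Reads over markers of other cell types were thus present in every group. The fibroblast and endothelial sums and the erythroid sums were lower in all treated than in all naive libraries of either graft. The neutrophil sums and the T and NK cell sums were higher in all treated ones. The keratinocyte sums overlapped in control tumours, and the macrophage and dendritic cell sums in both grafts. In such bulk samples fewer cells of a type and less of its RNA per cell cannot be told apart.

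Promoter sequences of the genes were available for 34 of the 37, from RefSeq on GRCm38.p6. In the 250 bases before a start, ACGTG or GCGTG on either strand was found in 31 of 34 (91.2%), in 17 of 19 glycolytic genes and in 14 of 15 HIF genes. The same search found a match in 41.5% of 27025 genes with a window and in 59.1% of the 8196 tested genes with one. No match was found for Gpi1, Tpi1 or Vhl, which says only that these letters are not in this window. The stretches below are shown because their genes carry the results that follow. Ldha, Hk2 and P4ha1 were higher in treated control tumours, and Egln3 was among the genes with the widest difference between grafts. Slc16a1 was the one glycolytic gene called lower after treatment. They read 5′ to 3′ on the gene's strand and capitals mark the 2 motifs or their reverse complements. The windows lie at chr7:46845740-46845803 (plus strand) for Ldha, chr6:82774472-82774536 (minus) for Hk2, chr10:59323250-59323295 (plus) for P4ha1, chr12:54204069-54204124 (minus) for Egln3 and chr3:104638500-104638564 (plus) for Slc16a1. None of them overlaps an annotated exon of its gene.
Ldha: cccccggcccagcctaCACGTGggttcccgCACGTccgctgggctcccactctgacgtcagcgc
Hk2: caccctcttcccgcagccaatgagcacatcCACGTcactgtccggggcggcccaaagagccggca
P4ha1: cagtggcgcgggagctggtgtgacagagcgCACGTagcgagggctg
Egln3: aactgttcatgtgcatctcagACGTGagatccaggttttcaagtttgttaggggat
Slc16a1: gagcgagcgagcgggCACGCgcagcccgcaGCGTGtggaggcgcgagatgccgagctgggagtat
In Ldha the first capital run is ACGTG read on both strands at once, with another match further on. Slc16a1, whose level moved opposite to that of the other lactate transporter, holds the motif as well. A match is a description of the letters and not a binding site.

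Per kb of exon, the highest of the 37 genes over all libraries were Bnip3 with 267 CPM per kb, Pgk1 with 195, Aldoa with 156, Eno1 with 152, Pgam1 with 127 and Pkm with 124. Exon length here joins all annotated exons of a gene, so it can exceed that of a single transcript and bears on this order. Without division by length, Eno1 (817 CPM) and Pkm (619 CPM) stood above Bnip3 (604 CPM). Pfkfb4 with 1.10 and Hk1 with 1.58 CPM per kb were the lowest of the glycolytic genes. Among the hexokinases, which trap glucose in the cell as glucose 6-phosphate, Hk2 held 68.5% to 80.6% of the summed level per kb in every library and Hk3 held 14.4% to 25.8%. The summed level of the 20 glycolytic genes was 2662, 2142 and 2885 CPM in control naive, 6792 and 5191 in control treated, 3952, 3436 and 3683 in naive Sox2Hi and 3947 and 4378 in treated Sox2Hi libraries. The control treated libraries were the highest, and both Sox2Hi groups lay between the 2 control groups. As a share of unscaled counts, the glycolytic genes made up 0.238% to 0.333% in control naive, 0.376% to 0.482% in control treated, 0.389% to 0.449% in Sox2Hi naive and 0.382% to 0.408% in Sox2Hi treated, so that without scaling the last 3 groups overlapped.

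**Figure D1:**
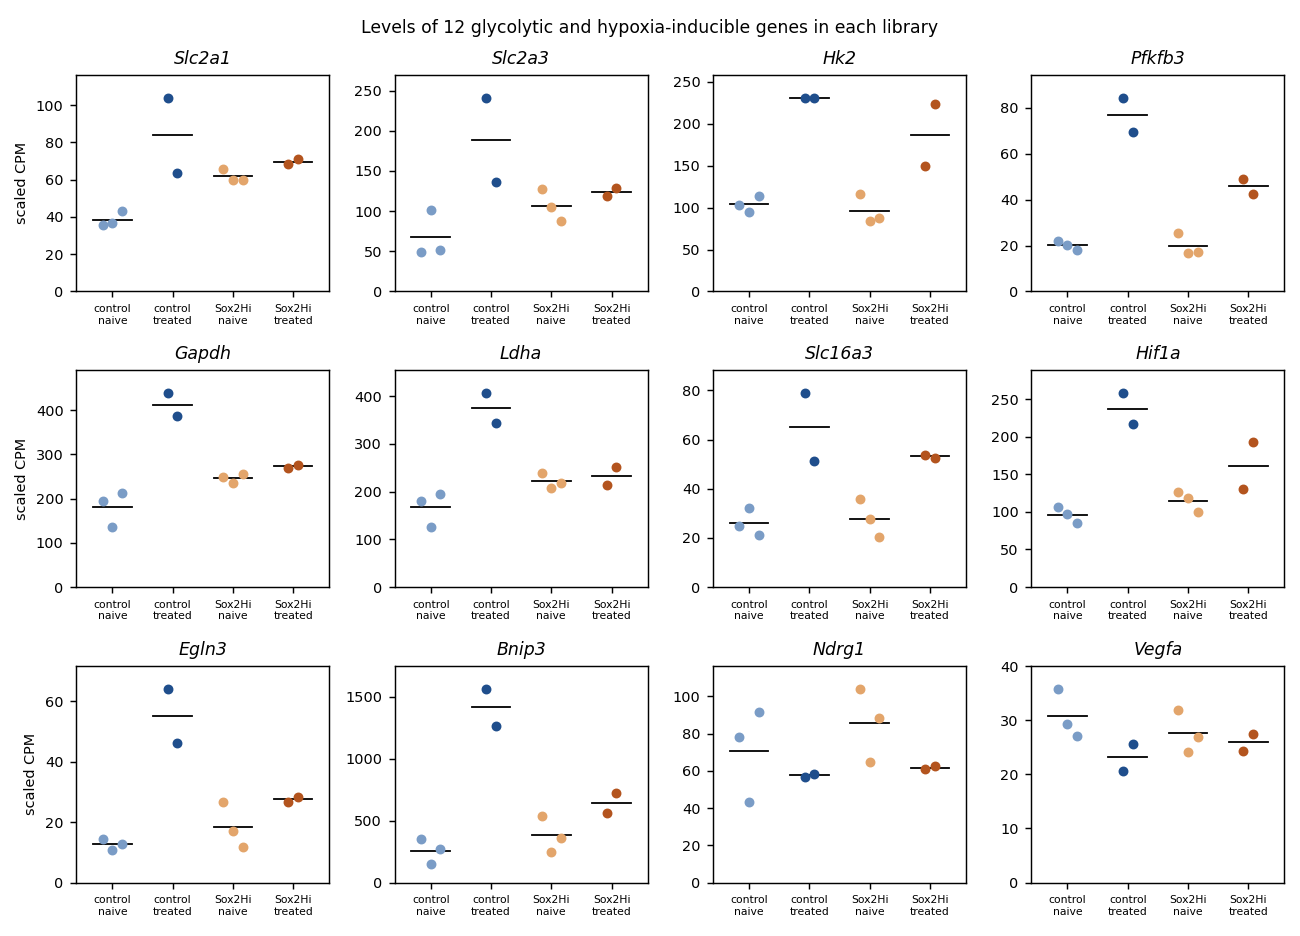
Levels of 12 genes in each library, in scaled CPM on a linear axis from 0, by group; each point is 1 library and each bar the group mean. Control treated stands above control naive in 10 of the 12 panels, the exceptions being Ndrg1, whose groups overlap, and Vegfa, which is lower; in Sox2Hi tumours the treated points of Gapdh (270 and 276 CPM) lie close to the naive ones (236 to 255 CPM).

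In control tumours, treatment came with higher levels of nearly the whole glycolytic route. Of the 20 glycolytic genes, 19 rose and 1 fell (quasi-likelihood F test of edgeR, adjusted over all tested genes, at 0.05), while 56.5% of the 11274 tested genes were called in this comparison, 28.7% higher and 27.8% lower. The median log2 fold change was 1.18, against −0.05 over all tested genes. Of the 16 HIF genes tested, 9 rose and 1 fell, with a median of 0.73. The treated libraries lay wholly above the naive ones for 18 glycolytic and 11 HIF genes and wholly below for 1 of each, against 34.1% and 33.2% of all tested genes. With all-gene scaling 19 glycolytic and 12 HIF genes were called, all higher, beside 33.9% of genes, 18.7% higher and 15.1% lower. The size of the rises depended on scaling. Library totals alone put the median of all tested genes at −0.69. Expressed-gene factors were lowest for treated control tumours (0.71 and 0.725), the rest lying between 0.873 and 1.218. Across the alternatives Gapdh ranged from 0.54 to 1.59, Ldha from 0.53 to 1.57, Eno1 from 0.52 to 1.56 and Slc2a1 from 0.46 to 1.51. Of these, only Slc2a1 lost its call, in 1 of 23 alternatives. The 16 neutrophil markers all rose (median 1.73), as did 4 of 6 tested T and NK cell markers (median 1.80) and 2 of 11 macrophage and dendritic cell markers, Cd68 and Csf1r (median of the 11 0.43). Of the fibroblast and endothelial markers 6 of 8 fell, of the keratinocyte markers 6 of 15 and of the erythroid markers 3 of 4. Their part in the results was not tested.

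Both glucose transporters rose. Slc2a1 (GLUT1; chromosome 4, 119108711 to 119137983 in GRCm38, as for all positions below) was at 35.6, 37 and 43.3 CPM in control naive, 104 and 63.5 in control treated, 65.8, 59.6 and 60.0 in naive Sox2Hi and 68.3 and 71.1 in treated Sox2Hi libraries. Slc2a3 (GLUT3, a high-affinity transporter; chromosome 6, 122727809 to 122801640) was at 49.0, 101 and 51.8, then 241 and 136, then 127, 105 and 87.4, and then 119 and 129 CPM in the same order. For both genes the 2 control treated libraries lay above all control naive ones but far from each other. Slc2a1 rose by 1.11 on the log2 scale (SE 0.19, edgeR adjusted p-value 0.0010) and Slc2a3 by 1.48 (SE 0.32, edgeR adjusted p-value 0.0032).

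The 3 largest glycolytic rises were those of Pfkfb3, Gpi1 and Pfkp. Hk2 (chromosome 6, 82725025 to 82774454) was at 103, 94.3 and 114 CPM in control naive and 231 in each control treated library, with 116, 83.9 and 87.4 in naive Sox2Hi and 150 and 224 in treated Sox2Hi libraries. Pfkfb3, which makes the activator fructose 2,6-bisphosphate of phosphofructokinase (chromosome 2, 11471433 to 11554077), was at 22.1, 20.3 and 17.9, then 84.3 and 69.3, then 25.5, 16.6 and 17, and then 49.1 and 42.4 CPM. Pfkp, the platelet-type phosphofructokinase (chromosome 13, 6579768 to 6648777), was at 53.9, 50.6 and 50, then 200 and 166, then 62.6, 50.7 and 46.9, and then 86.6 and 119 CPM. In these 3 genes the treated libraries lay above all naive ones in both grafts. In control tumours Pfkfb3 rose by 1.93 (SE 0.21, edgeR adjusted p-value 9.5e-05), Pfkp by 1.83 (SE 0.18, edgeR adjusted p-value 6.7e-05) and Hk2 by 1.16 (SE 0.20, edgeR adjusted p-value 0.00094). Gpi1, the isomerase between hexokinase and phosphofructokinase (chromosome 7, 34201330 to 34230336), was at 30.7, 33.3 and 30.4, then 132 and 103, then 43.2, 37.9 and 32.7, and then 72.2 and 71.2 CPM. It rose by 1.90 (SE 0.16, edgeR adjusted p-value 3.8e-05) in control tumours. Hk3, a hexokinase of myeloid cells, rose by 1.42, Pfkl by 0.86, Pfkfb4 by 0.75 and the ubiquitous Hk1 by 0.50. Reads at the silent-gene rate would make up 28.9% of those of Pfkfb4 and 20.1% of those of Hk1.

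The enzymes from aldolase to pyruvate kinase, a stretch that splits the sugar and ends in the ATP-yielding steps, rose by 0.76 to 1.52. Aldoa, the aldolase (chromosome 7, 126795234 to 126800751), was at 269, 192 and 294 CPM in control naive, 841 and 603 in control treated, 469, 408 and 416 in naive Sox2Hi and 510 and 525 in treated Sox2Hi libraries. Gapdh, glyceraldehyde 3-phosphate dehydrogenase (chromosome 6, 125161715 to 125166467), was at 195, 136 and 212, then 438 and 387, then 248, 236 and 255, and then 270 and 276 CPM. Eno1, enolase (chromosome 4, 150236721 to 150248879), was at 544, 449 and 583, then 1339 and 1011, then 849, 817 and 843, and then 822 and 908 CPM. In all 3 genes the Sox2Hi naive libraries lay above every control naive library and below both control treated ones. The log2 rises in control tumours were 1.52 for Aldoa (SE 0.20), 1.19 for Gapdh (SE 0.18) and 1.16 for Eno1 (SE 0.17), with edgeR adjusted p-values of 0.00026, 0.00051 and 0.00045. Gapdh has 93 near-identical copies in the annotation, which held 15.82% of their summed counts, so its single value is uncertain, and adding them altered no call. Pkm, pyruvate kinase (chromosome 9, 59656368 to 59679375), was at 317, 344 and 402, then 1206 and 642, then 708, 592 and 656, and then 638 and 685 CPM. Its 2 control treated libraries differed from each other by more than any other group's, and it rose by 1.38 (SE 0.23, edgeR adjusted p-value 0.00086). Tpi1, Pgk1 and Pgam1, the other enzymes of this stretch, rose by 1.29, 1.05 and 0.76.

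At the lactate end, the transporters moved in opposite directions. Ldha, which reduces pyruvate to lactate (chromosome 7, 46841475 to 46855627), was at 180, 125 and 195 CPM in control naive, 406 and 344 in control treated, 239, 208 and 217 in naive Sox2Hi and 214 and 251 in treated Sox2Hi libraries. It rose by 1.17 in control tumours (SE 0.19, edgeR adjusted p-value 0.00074). Slc16a3 (MCT4, a lactate exporter of glycolytic cells; chromosome 11, 120948480 to 120960868) was at 24.9, 32.3 and 21.1, then 78.8 and 51.3, then 35.6, 27.5 and 20.2, and then 53.6 and 52.6 CPM. Slc16a1 (MCT1, which carries lactate in either direction; chromosome 3, 104638668 to 104658462) was at 44.5, 34.8 and 53.7, then 26.1 and 20.1, then 44.8, 46.2 and 54.1, and then 23 and 24.1 CPM. In both grafts, treated libraries were above all naive ones for Slc16a3 and below all naive ones for Slc16a1. In control tumours Slc16a3 rose by 1.32 (SE 0.26, edgeR adjusted p-value 0.0020) and Slc16a1 fell by 0.94 (SE 0.21, edgeR adjusted p-value 0.0033). Under all-gene scaling, where the median of the expressed genes stood at 0.36, Slc16a1 was at −0.55 and not called (edgeR adjusted p-value 0.11). Summed fibroblast and endothelial markers and summed erythroid markers were also lower in the treated libraries of both grafts, and keratinocyte markers in those of Sox2Hi tumours, with the ranges given above. Their part in the Slc16a1 values was not tested.

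Among the HIF genes, the factor itself and its feedback inhibitor rose. Hif1a (ENSMUSG00000021109, chromosome 12, 73901375 to 73947530) was at 106, 97.8 and 85.2 CPM in control naive, 258 and 217 in control treated, 127, 118 and 100 in naive Sox2Hi and 130 and 193 in treated Sox2Hi libraries. Egln3, a prolyl hydroxylase that marks HIF for degradation and is itself induced by HIF (chromosome 12, 54178981 to 54203860), was at 14.5, 10.8 and 12.9, then 64.1 and 46.3, then 26.5, 16.9 and 11.7, and then 26.7 and 28.4 CPM. Treated libraries lay above all naive ones for both genes in both grafts, by a narrow margin in Sox2Hi tumours. In control tumours Hif1a rose by 1.30 (SE 0.19, edgeR adjusted p-value 0.00044) and Egln3 by 2.11 (SE 0.29, edgeR adjusted p-value 0.00031). Vhl, the recognition subunit of the ubiquitin ligase for HIF, rose by 0.68. Egln1, the main oxygen-sensing hydroxylase, had 0.41 and was not called (SE 0.22, edgeR adjusted p-value 0.12), although its treated libraries lay above all naive ones in control tumours. With all-gene scaling it was at 0.81 and called (edgeR adjusted p-value 0.031).

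The largest rises of all 36 tested genes were in HIF targets. Bnip3, a mitophagy receptor (chromosome 7, 138890836 to 138909519), was at 351, 151 and 274 CPM in control naive, 1564 and 1265 in control treated, 541, 247 and 363 in naive Sox2Hi and 558 and 723 in treated Sox2Hi libraries. Ankrd37, an ankyrin repeat gene known as a HIF-1 target (chromosome 8, 45996902 to 46005707), was at 16.5, 10.7 and 13.7, then 80.6 and 106, then 26.2, 13.6 and 15.5, and then 44.6 and 38.8 CPM. In both genes control treated stood above every other group with no overlap. Ankrd37 rose by 2.77 (SE 0.28, edgeR adjusted p-value 7.3e-05), a 6.84-fold change, and Bnip3 by 2.45 (SE 0.36, edgeR adjusted p-value 0.00044), a 5.46-fold change. The related mitophagy receptor Bnip3l (chromosome 14, 66985239 to 67008877) was at 182, 149 and 183, then 363 and 369, then 213, 183 and 189, and then 198 and 243 CPM, and rose by 1.10 (SE 0.15, edgeR adjusted p-value 0.00034). The collagen prolyl hydroxylase subunit P4ha1 rose by 1.59, the histone demethylase Kdm3a by 1.42 and the MYC antagonist Mxi1 by 0.79.

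Other HIF targets were lower or were not called. P4ha2 (chromosome 11, 54100095 to 54131665), which encodes another catalytic subunit of the same collagen hydroxylase, was at 25.9, 15.2 and 25.0 CPM in control naive, 16.5 and 9.97 in control treated, 27.9, 22.9 and 35.6 in naive Sox2Hi and 17.8 and 16.2 in treated Sox2Hi libraries. It fell by 0.74 in control tumours (SE 0.29, edgeR adjusted p-value 0.048), where the groups overlapped, and with all-gene scaling it was at −0.36 and not called (edgeR adjusted p-value 0.39). Vegfa, the angiogenic growth factor (chromosome 17, 46016993 to 46032369), was at 35.8, 29.3 and 27.1, then 20.7 and 25.6, then 31.9, 24.2 and 26.9, and then 24.4 and 27.4 CPM. Ndrg1, a stress-response gene often used as a hypoxia marker (chromosome 15, 66929318 to 66969640), was at 78.1, 43.2 and 91.3, then 56.8 and 58.4, then 104, 64.8 and 88.5, and then 60.8 and 62.5 CPM. Neither passed the test in control tumours, with −0.41 for Vegfa (SE 0.19, edgeR adjusted p-value 0.082) and −0.30 for Ndrg1 (SE 0.28, edgeR adjusted p-value 0.38), and with all-gene scaling they were at 0.02 and 0.09. Pdk1 and Pdk3, kinases that hold pyruvate back from mitochondria, had 0.51 and 0.19, and the mTOR inhibitor Ddit4 had −0.08, none of them called. With all-gene scaling both kinases were called higher, Pdk1 at 0.90 (edgeR adjusted p-value 0.016) and Pdk3 at 0.59 (edgeR adjusted p-value 0.049). Fibroblast and endothelial marker sums were also lower in the treated libraries. The keratinocyte sums overlapped in control tumours, where 6 of 15 markers were called lower (2 of 15 with all-gene scaling) and Krt6b and Krt16 had 1.75 and 0.48, neither called. The part of both in the P4ha2 values was not tested.

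Leaving out any one of the 10 libraries kept 16 of the 20 glycolytic calls and 8 of the 10 HIF calls. The exceptions were Hk1, Pfkl, Pfkfb4, Pgam1, Vhl and P4ha2. Without control treated replicate 1, the values were −0.07 for Pfkl, 0.37 for Pfkfb4, 0.34 for Hk1, 0.49 for Pgam1 and 0.46 for Vhl (edgeR adjusted p-values 0.83, 0.38, 0.21, 0.16 and 0.077), and without control treated replicate 2, P4ha2 was at −0.41 (edgeR adjusted p-value 0.34). Hk1, Pfkl, Pfkfb4 and P4ha2 lost their calls without other single libraries too. With library totals as the only scaling, Hk1 was at −0.15 (edgeR adjusted p-value 0.54).

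In Sox2Hi tumours, treatment came with higher levels of some glycolytic genes, among them Pfkfb3, Hk2 and Pfkp, while most of the set was not called. Of the 20 glycolytic genes, 6 rose and 1 fell, with a median of 0.24, and 1 of 16 HIF genes rose, with a median of 0.21. Over all tested genes 20% were called, 11.8% higher and 8.23% lower, and the median was 0.03, so the share of glycolytic genes called lay above that background and that of HIF genes below it. The treated libraries lay wholly above the naive ones for 12 glycolytic and 7 HIF genes and wholly below for 1 and 2, against 32.5% and 30% of all tested genes. Neutrophil markers rose in 8 of 16 cases, with a median of 0.93, and 4 of 8 fibroblast and endothelial, 4 of 15 keratinocyte and 4 of 4 erythroid markers fell. Of the T and NK cell markers 1 of 6 rose, and of the macrophage and dendritic cell markers 1 of 11. Their part was not tested.

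Pfkfb3 rose by 1.22 (SE 0.21, edgeR adjusted p-value 0.0057), Hk2 by 0.97 (SE 0.20, edgeR adjusted p-value 0.011) and Pfkp by 0.95 (SE 0.18, edgeR adjusted p-value 0.0092). Slc16a3 rose by 0.94, Gpi1 by 0.92 and Hk3 by 0.88, and Slc16a1 fell by 1.04 (SE 0.21, edgeR adjusted p-value 0.011). The HIF gene that rose was Ankrd37, by 1.18 (SE 0.27, edgeR adjusted p-value 0.018). Eno1 had 0.05 (SE 0.17), Pkm 0.02 (SE 0.24) and Ldha 0.07 (SE 0.19), with edgeR adjusted p-values of 0.85, 0.95 and 0.81. Hif1a had 0.49 (SE 0.19, edgeR adjusted p-value 0.090), Bnip3 0.74 (SE 0.36, edgeR adjusted p-value 0.15) and Egln3 0.58 (SE 0.29, edgeR adjusted p-value 0.16). Vegfa had −0.10 and Ndrg1 −0.47, and neither was called.

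These calls rest on few libraries. Without Sox2Hi treated replicate 2, only Pfkfb3 of the 7 glycolytic genes was called, and without Sox2Hi treated replicate 1 it was 4 of them. Ankrd37 was at 1.14 without Sox2Hi naive replicate 3, 1.08 without Sox2Hi treated replicate 1 and 1.27 without Sox2Hi treated replicate 2, and was not called in these fits (edgeR adjusted p-values 0.059, 0.073 and 0.10). The number of HIF genes called was 3 without control naive replicate 2 or Sox2Hi naive replicate 1, 2 without control naive replicate 3 and 0 without Sox2Hi naive replicate 3 or Sox2Hi treated replicate 2. Pfkfb3 kept its call under each of the 22 alternatives in which it was tested, which leave out the 50 CPM filter. With all-gene scaling, which put the median of the expressed genes at −0.18, 3 glycolytic genes were called (Pfkfb3 and Gpi1 higher, Slc16a1 lower) and no HIF gene (3 of 17 had an unadjusted p-value under 0.05), beside 3.61% of genes, 1.79% higher and 1.82% lower.

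**Figure D2:**
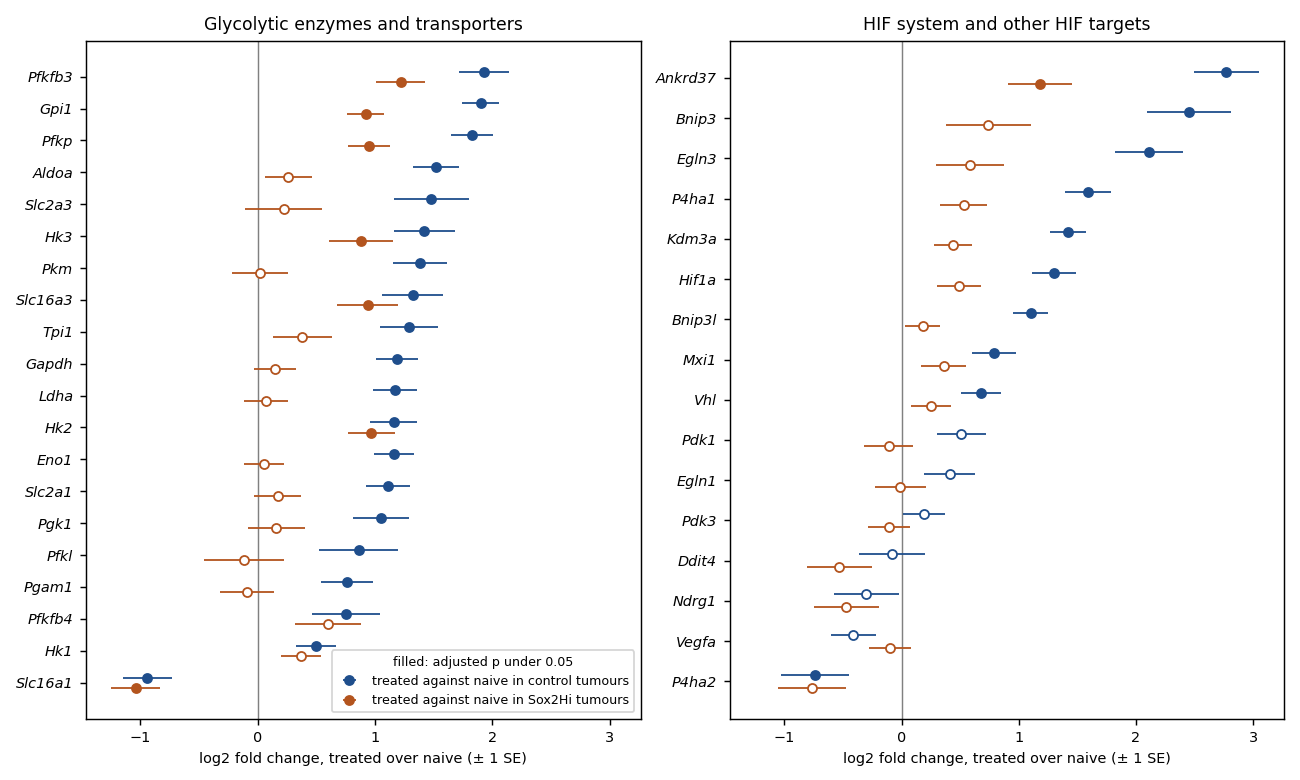
Log2 fold change of treated over naive for the 36 tested genes in control (blue) and Sox2Hi tumours (orange), with bars of 1 standard error and filled points for an edgeR adjusted p-value under 0.05. Under the expressed-gene scaling plotted, the blue point lies to the right of the orange one for 20 of 20 glycolytic genes and for 15 of 16 HIF genes, Vegfa being the exception; with library totals alone this holds for 16 and 12.

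The difference between the treatment changes was tested as the graft by treatment interaction. It was below 0, meaning a smaller rise or larger fall in Sox2Hi tumours, for 20 of 20 glycolytic genes and for 15 of 16 HIF genes, beside 59.4% of all tested genes. With library totals alone it was below 0 for 16 and 12 of them, beside 37.4% of all tested genes, with library sizes from the expressed genes for 16 and 13, beside 48.5%, and without Sox2Hi naive replicate 1 for 15 and 13, beside 49.7%. The 2 treatment comparisons share no libraries. The test called 8 glycolytic and 6 HIF genes, all lower in Sox2Hi, where 23.7% of all tested genes were called, with 9.11% of all tested genes lower and 14.6% higher. The medians were −0.90 and −0.53, against −0.17 over all tested genes. Neutrophil markers had a median of −0.97 with 1 of 16 called lower, and with all-gene scaling −1.60 with 13 of 16 called lower. Macrophage and dendritic cell markers had a median of −0.34 with 0 of 11 called, and with all-gene scaling −0.95 with 4 of 13 called lower. The medians of the T and NK cell, erythroid, keratinocyte, and fibroblast and endothelial markers were −0.71, −1.11, 0.22 and 0.89, with none called under either scaling. Their part was not tested.

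Among the glycolytic genes Pkm had −1.36 (SE 0.33, edgeR adjusted p-value 0.016), Aldoa −1.26 (SE 0.29, edgeR adjusted p-value 0.012) and Eno1 −1.11 (SE 0.25, edgeR adjusted p-value 0.0098). Ldha, Gapdh, Gpi1, Slc2a1 and Pfkp followed with −1.10, −1.04, −0.98, −0.94 and −0.88. For Hk2 the interaction was −0.19 (SE 0.28, edgeR adjusted p-value 0.65), for Slc16a3 −0.38 (SE 0.38, edgeR adjusted p-value 0.48) and for Slc16a1 −0.10 (SE 0.28, edgeR adjusted p-value 0.83), and none was called. With all-gene scaling Slc16a3 was at −1.0 and called (edgeR adjusted p-value 0.038), while Hk2 and Slc16a1 were not. Slc2a3, with −1.27, had an SE of 0.47 and was not called (edgeR adjusted p-value 0.071), but with all-gene scaling it was at −1.90 and called (edgeR adjusted p-value 0.0077). Among the HIF genes Bnip3 had −1.71 (SE 0.51, edgeR adjusted p-value 0.035), Ankrd37 −1.59 (SE 0.40, edgeR adjusted p-value 0.016) and Egln3 −1.53 (SE 0.41, edgeR adjusted p-value 0.024). P4ha1, Kdm3a and Bnip3l had −1.06, −0.98 and −0.92. Hif1a itself had −0.82 (SE 0.27, edgeR adjusted p-value 0.053) and missed the threshold, whereas with all-gene scaling it was at −1.44 and called (edgeR adjusted p-value 0.0060).

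The interaction depended on scaling and on single libraries in size and in number of calls, while no called value changed sign. All-gene scaling, with a median of −0.79 over the expressed genes, called 17 glycolytic and 11 HIF genes, all lower, beside 27.5% of genes, 11.2% higher and 16.3% lower. Library totals alone, with a median of 0.19, called 1 gene of each set. Background subtraction left 4 and 1 calls, and with the filter at 50 CPM none of the 13 and 5 genes tested was called. Without control treated replicate 1 the calls were 1 glycolytic and 3 HIF genes, without Sox2Hi treated replicate 1 they were 1 and 0, without Sox2Hi naive replicate 1 they were 1 and 1, without Sox2Hi naive replicate 2 they were 3 and 2, and without Sox2Hi naive replicate 3 they were 3 and 3. Without control naive replicate 3 they were 5 and 1, and without Sox2Hi treated replicate 2 they were 5 and 3. Eno1 was the one gene whose call held in all of the fits without 1 library.

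**Figure D3:**
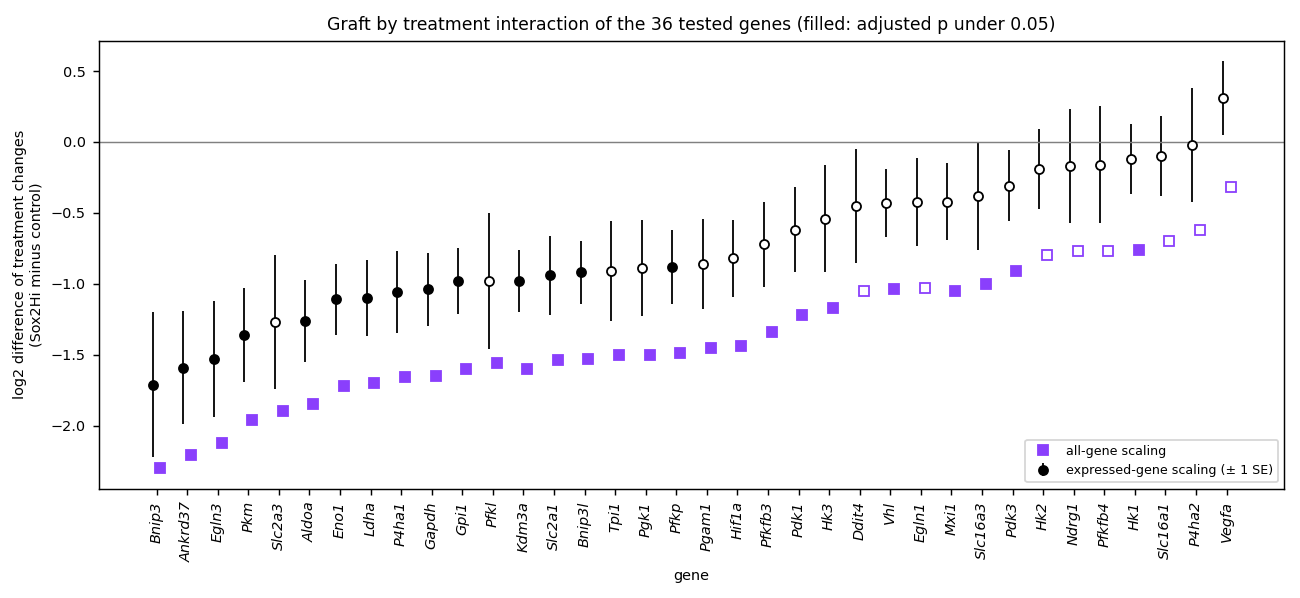
Interaction of the 36 tested genes, as the log2 treatment change in Sox2Hi minus that in control tumours, under the expressed-gene scaling (black, with 1 standard error) and the all-gene scaling (violet squares), filled for an edgeR adjusted p-value under 0.05. The order of genes is similar and all-gene values lie lower throughout, from −2.30 for Bnip3 to −0.32 for Vegfa.

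In naive tumours, neutrophils from Sox2Hi grafts had higher levels of Pkm, Aldoa, Slc2a1 and Eno1 than those from control grafts. Pkm was higher by 0.88 (SE 0.21, edgeR adjusted p-value 0.028), Aldoa by 0.77 (SE 0.18, edgeR adjusted p-value 0.027), Slc2a1 by 0.68 (SE 0.18, edgeR adjusted p-value 0.035) and Eno1 by 0.67 (SE 0.16, edgeR adjusted p-value 0.027). In the values listed above, all 3 Sox2Hi naive libraries lay above all 3 control naive libraries for each of these genes. The test called 4 of 20 glycolytic genes and 0 of 16 HIF genes, beside 11.8% of all tested genes, 3.18% higher and 8.59% lower. The medians were 0.26 and 0.32, against 0.04 over all tested genes. All Sox2Hi libraries lay above all control ones for 7 glycolytic and 4 HIF genes, against 16.9% of all tested genes, and below for none, against 17.6%. With all-gene scaling 4 glycolytic and 0 HIF genes were called, beside 1.88% of genes, 1.67% higher and 0.216% lower. Of the HIF genes 3 of 16 had an unadjusted p-value under 0.05, and 11 of 17 with all-gene scaling, where their median was 0.65 and that of the expressed genes 0.32. DESeq2 called 0 HIF genes and limma-voom 3. Hk2 had −0.11, Pfkfb3 −0.03, Pfkp 0.05, Slc16a3 0.09 and Hif1a 0.26, and none was called. Of 15 keratinocyte markers 4 were called higher in Sox2Hi (median of all 15 −0.26), as was 1 of 16 neutrophil markers (median 0.04), and their part was not tested.

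No glycolytic gene was called in naive tumours when control naive replicate 1 or 2, or any one Sox2Hi naive library, was left out. The values themselves moved little, with Pkm between 0.74 and 0.87 and Aldoa between 0.61 and 0.80 in these fits (edgeR adjusted p-values from 0.060 to 0.096 and from 0.067 to 0.090). The same-numbered naive libraries deviated together, and with the number as a block 5 glycolytic genes and 0 HIF genes were called. Background subtraction left 2 glycolytic calls, the filter at 50 CPM and a fit of the naive groups alone left 0, and limma-voom made 9.

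In treated tumours 8 genes were called lower in Sox2Hi, none of them among the 4 called in naive tumours. Pkm, Aldoa, Slc2a1 and Eno1 had −0.48, −0.48, −0.26 and −0.44 here and were not called. Among the glycolytic genes Pfkp had −0.83 (SE 0.20, edgeR adjusted p-value 0.021), Pfkfb3 −0.75 (SE 0.23, edgeR adjusted p-value 0.041), Gpi1 −0.71 (SE 0.18, edgeR adjusted p-value 0.023) and Ldha −0.69 (SE 0.21, edgeR adjusted p-value 0.042). Among the HIF genes Ankrd37 had −1.16 (SE 0.31, edgeR adjusted p-value 0.026), Egln3 −1.0 (SE 0.32, edgeR adjusted p-value 0.047), Bnip3l −0.73 (SE 0.17, edgeR adjusted p-value 0.019) and Kdm3a −0.61 (SE 0.17, edgeR adjusted p-value 0.031). The counts were thus 4 of 20 and 4 of 16, all lower, beside 21.9% of all tested genes, 10.1% lower and 11.8% higher. The shares of called genes in either direction were therefore near the background, while medians were −0.48 and −0.35 against −0.07 over all tested genes. The Sox2Hi libraries lay wholly below the control ones for 13 glycolytic and 10 HIF genes and wholly above for 1 HIF gene, against 34.1% and 28.8% of all tested genes. Bnip3 had −1.14 (SE 0.40, edgeR adjusted p-value 0.062) and Hif1a −0.56 (SE 0.21, edgeR adjusted p-value 0.081). With all-gene scaling both were called, at −1.47 and −0.89 (edgeR adjusted p-values 0.037 and 0.022). Hk2 had −0.30, Slc16a3 −0.29, Slc16a1 0.03, Vegfa 0.16 and Ndrg1 0.10, and none was called. Neutrophil markers were called lower in 5 of 16 cases, with a median of −0.75, and in 10 of 16 with all-gene scaling (median −1.08). Of the keratinocyte markers 4 of 15 were called higher in Sox2Hi (median −0.04), as was 1 of 8 fibroblast and endothelial markers (median 1.01). Of the 11 macrophage and dendritic cell markers 1 was called lower, and the 4 erythroid markers had a median of −2.15 with none called, though all 4 had an unadjusted p-value under 0.05. Their part was not tested.

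None of these 8 calls held in all of the fits without 1 library. Without control treated replicate 1 there were 0 glycolytic and 1 HIF calls, without control treated replicate 2 there were 1 and 0, without Sox2Hi treated replicate 1 there were 0 and 0, and without Sox2Hi treated replicate 2 there were 1 and 2. Leaving out a naive library, which enters through the shared spread and scaling, gave 1 and 2, 8 and 5, and 2 and 2 calls for control naive replicates 1, 2 and 3, and 3 and 3, 1 and 2, and 2 and 3 for Sox2Hi naive replicates 1, 2 and 3. All-gene scaling, with a median of −0.41, called 8 and 8, all lower, beside 13.8% of genes, 4.14% higher and 9.62% lower. Background subtraction left 1 and 1 calls, the filter at 50 CPM 0 and 0, and a fit of the compared groups alone 0 and 2. Library totals alone, with a median of 0.34, called 0 and 0.

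A share of one family member in the summed level per kb of its family does not depend on how libraries are scaled against each other, and such shares were compared between groups. Slc16a3 made up 31.7%, 43.6% and 24.6% of the 2 lactate transporters in control naive, 71.5% and 68.0% in control treated, 39.8%, 33.1% and 23.7% in naive Sox2Hi and 66.0% and 64.5% in treated Sox2Hi libraries. P4ha2 made up 32.8%, 29.5% and 31.8% of P4ha1 and P4ha2, then 9.76% and 6.88%, then 26.1%, 28.3% and 38.5%, and then 15.7% and 15.1%. Pfkp made up 55.4%, 55.7% and 47.2% of Pfkl and Pfkp, then 61.8% and 78.5%, then 40.3%, 41.2% and 33.7%, and then 55.8% and 57.2%. In these 3 families treated and naive libraries did not overlap within either graft, and the same held for Bnip3 beside Bnip3l and for Pfkfb4 beside Pfkfb3. The mean difference of treated over naive within grafts was 34.7 percentage points for Slc16a3, −19.3 for P4ha2 and 17.7 for Pfkp. Each had an exact two-sided permutation p of 0.0100, the smallest that 100 arrangements can give.

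Of the remaining families, treated over naive was 19.0 points for Egln3 beside Egln1, 11.7 for Bnip3 beside Bnip3l and −9.74 for Pfkfb4 beside Pfkfb3, each with an exact permutation p of 0.020. Between grafts, Pfkp had −14.0 points in Sox2Hi and Pdk1 2.64 points, each with an exact permutation p of 0.0167 over 120 arrangements. With Benjamini-Hochberg adjustment over the 20 comparisons, these 8 had 0.050, which is not below the threshold of 0.05, and the other 12 were higher. Without control naive replicate 3, Sox2Hi naive replicate 1 or Sox2Hi naive replicate 2, 7 shares passed in each case, and without any other naive library 0 passed. Leaving out a library leaves fewer arrangements and so raises the smallest possible p. Whether a share passes then depends on how many comparisons tie at that value, so these counts do not show how firm the shares are. The shares of Slc2a3, Hk2 and Hk3 in their families had exact permutation p-values from 0.133 to 0.860.

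**Figure D4:**
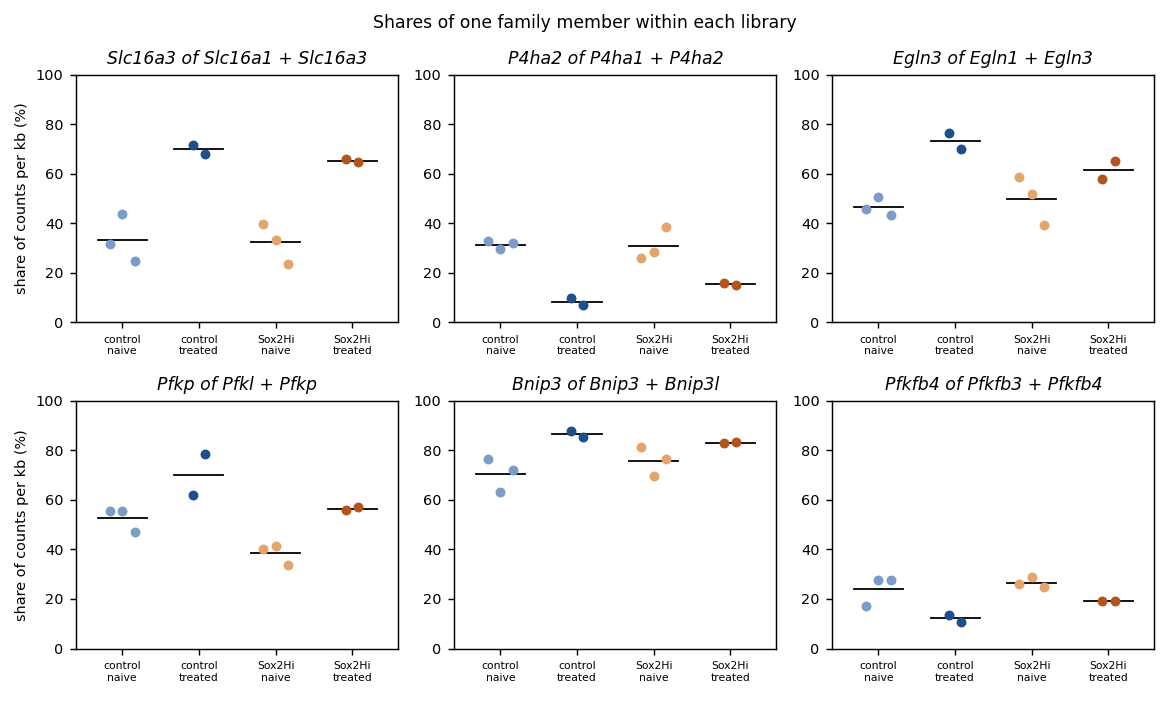
Share of one gene in the summed counts per kb of its family, in percent, by group; each point is 1 library and each bar the group mean. Slc16a3 lies between 23.7% and 43.6% in the naive libraries and between 64.5% and 71.5% in the treated ones, and P4ha2 between 26.1% and 38.5% and between 6.88% and 15.7%.

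Genes of the same routes outside the 37 were called about as often as all tested genes in control tumours, but more of them rose than fell. Of 25 tested further genes of glycolysis and carbon use, 9 rose and 4 fell with treatment in control tumours. Of 34 tested further genes of the HIF route, 15 rose and 4 fell. Of all tested genes 56.5% were called, 28.7% higher and 27.8% lower. In Sox2Hi tumours 1 rose and 1 fell, and 7 rose and 2 fell, beside 20% of all tested genes. In control tumours the largest rises were in Hmox1, the heme-degrading enzyme heme oxygenase 1 (2.93, SE 0.35, edgeR adjusted p-value 0.00015), and Ero1l, an oxidase of protein folding in the endoplasmic reticulum (2.72, SE 0.26, edgeR adjusted p-value 5.6e-05). The largest falls among the called genes were in the collagen lysyl hydroxylase Plod2 (−2.77, SE 0.39, edgeR adjusted p-value 0.00034) and the muscle enolase Eno3 (−1.28, SE 0.32, edgeR adjusted p-value 0.0064). Plod2 had 15 and 33 reads in the control treated libraries. Among the genes called in Sox2Hi tumours, the largest rises were in Nampt, an enzyme of NAD synthesis (1.72, SE 0.25, edgeR adjusted p-value 0.0024), and Hmox1 (1.29, SE 0.34, edgeR adjusted p-value 0.026). The largest falls among them were in Eno3 (−1.20, SE 0.31, edgeR adjusted p-value 0.025) and Plod2 (−1.07, SE 0.34, edgeR adjusted p-value 0.048). The collagen genes Plod2 and P4ha2 and the fibroblast markers were called lower in treated control tumours (6 of 8 of the markers), and the part of other cell types in their values was not tested.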

How the data were processed

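RNA was extracted with a zymo Quick-RNA microprep kit and libraries were made with a NEBNext single-cell and low-input kit, per the labels' protocols. The authors deposited 1 table of estimated counts per gene, whole numbers of which the 4 with over 6 digits end in 0. The submitters' processing notes name kallisto 0.44.0 and mm10, without their role. Of 55481 entries, 96 are not mouse genes (0.000992% to 0.00277% of counts) and were left out. Symbols and positions came from GENCODE M21, which matched 55144 identifiers. The 37 genes, the lists and the tests were chosen with earlier results of these data known.

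All 10 libraries were fitted with 4 groups in edgeR 4.0.16 (R 4.3.3), by the quasi-likelihood test on 11274 genes (mean CPM by library totals of 5 or more), with TMM factors from them. Benjamini-Hochberg adjustment covered all tested genes, at 0.05, and the common coefficient of variation was 0.213. Standard errors are the log2 fold change over the square root of F. The code was tested on simulated counts. Silent-gene reads are the median count per kb over 1466 receptor genes. Family shares were compared by exact permutation within strata (Python 3.11.15), without regard to replicate numbers. Near-identical copies were found with BLAST 2.17.0 (95% identity over 50% of length).

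Values in every library are given for Hif1a, Slc2a1, Slc2a3, Hk2, Pfkfb3, Gapdh, Ldha, Slc16a3, Vegfa, Bnip3, Ndrg1 and Egln3, and per comparison and set for up to 3 called genes with the largest rise and up to 3 with the largest fall. Outside the 37, the 2 largest rises and falls called per treatment comparison are named. Other genes are given as shorter values. Same-numbered naive libraries deviated from their group means together (r = 0.273, 0.324 and 0.474). The reported fit nevertheless has no block, and the number served as a block only in alternatives. What a number marks is not given, and since titles and descriptions number the treated libraries differently, a block was run by each. Replicates of one group differed by a chi-square of at least 12.5 per degree of freedom, so none was counted as a repeat. Alternatives were all-gene scaling, other filters, factors, tools (DESeq2 1.42.0, limma-voom in limma 3.58.1), blocks, background subtraction, copies summed and each library left out. Library sizes from the expressed genes were added after the data were seen.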

Additional observations from a re-analysis of the deposited data

Results flagged for a closer look

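The treatment change differed between grafts, by the interaction test in edgeR, in 14 of the 36 tested genes, and each was lower in Sox2Hi tumours. The glycolytic genes were Pkm (−1.36 on the log2 scale), Aldoa (−1.26), Eno1 (−1.11), Ldha (−1.10), Gapdh (−1.04), Gpi1 (−0.98), Slc2a1 (−0.94) and Pfkp (−0.88). The HIF genes were Bnip3 (−1.71), Ankrd37 (−1.59), Egln3 (−1.53), P4ha1 (−1.06), Kdm3a (−0.98) and Bnip3l (−0.92). Over all tested genes 9.11% were called lower in this comparison. All but Eno1 lost the call in at least 1 fit without 1 library, with the counts given in the report.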

How the results depend on the processing

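Of the 64 calls over the 5 comparisons, DESeq2 kept 64, RLE factors 63, the block by title number 62, limma-voom 60, all-gene scaling 57, no filter on low counts 57, the block by description number 55, library sizes from the expressed genes 53 and library totals alone 34. Summing near-identical copies kept all 64. Background subtraction kept 45 of 63, the compared groups alone 34 of 49, and a filter at 50 CPM, which tests fewer genes and refits the factors, 18 of 39. Reversed values were Hk1 with library totals (−0.15) and Pfkl without control treated replicate 1 (−0.07, the lowest of −0.07 to 1.42 without 1 library), both for treatment in control tumours. Called glycolytic and HIF genes for the treatment of control grafts, that of Sox2Hi grafts, the graft difference when naive, the graft difference when treated and the interaction were as follows, where the cause of a change was not tested. The reported fit called 20 and 10, 7 and 1, 4 and 0, 4 and 4, and 8 and 6. All-gene scaling called 19 and 12, 3 and 0, 4 and 0, 8 and 8, and 17 and 11. The 50 CPM filter called 11 and 5, 3 and 0, 0 and 0, 0 and 0, and 0 and 0. Library totals called 14 and 11, 5 and 2, 4 and 0, 0 and 0, and 1 and 1. Background subtraction called 18 and 11, 7 and 1, 2 and 0, 1 and 1, and 4 and 1. DESeq2 called 20 and 11, 7 and 2, 6 and 0, 9 and 7, and 12 and 7. Limma-voom called 19 and 11, 7 and 3, 9 and 3, 3 and 3, and 9 and 5. Library sizes from the expressed genes gave 17 and 11, 7 and 2, 4 and 0, 2 and 2, and 6 and 4. The compared groups alone gave 16 and 9, 7 and 2, 0 and 0, and 0 and 2, and were not run for the interaction. Without the low-count filter the treated grafts had 2 and 4. The replicate block by title number gave 19 and 12, 6 and 1, 5 and 0, 6 and 6, and 11 and 7. Of the 64 calls this block lost 2, and it gained 11, whereas the block by description number lost 9 and gained 7. Leaving out 1 library gave ranges of 16 to 20 and 9 to 11, 1 to 7 and 0 to 3, 0 to 5 and 0 to 0, 0 to 8 and 0 to 5, and 1 to 10 and 0 to 5. In the fits that leave 1 treated library in a group, it is assumed to vary like the other groups. Between 0 and 7 family shares passed without 1 naive library, with 7 without control naive replicate 3, Sox2Hi naive replicate 1 or Sox2Hi naive replicate 2 and 0 without any other naive library. These counts also reflect the fewer arrangements left. For other genes of glycolysis, all-gene scaling gave 1 call instead of 2 for treatment in Sox2Hi tumours, 9 instead of 3 for treated grafts and 14 instead of 6 for the interaction. For other HIF-route genes it gave 2 instead of 9 for treatment in Sox2Hi tumours and 1 instead of 2 for naive grafts. Depth limits Adm, which was too low to test, and Pfkfb4 and Hk1, which had the highest shares of reads at the silent-gene rate.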
